A study of Mus musculus with 20 samples.

Results

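The autophagy machinery is represented here by 38 mouse genes, which encode the proteins that start, expand and close the autophagosome, the ATG8 proteins with the enzymes that attach them to lipid, 3 cargo receptors and the transcription factors TFEB and TFE3. They are picked out by gene name, with no cut-off on a measured value, from a list drawn up with earlier results of these data known, and probesets whose annotation gave exactly 1 of these symbols were averaged per gene. All 38 genes were measured, among 22180 genes on the array. Of the 38 genes, 37 were read by 1 probeset, and Gabarap was read by 2.

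Macroautophagy encloses cytoplasm in a double membrane and delivers it to the lysosome for breakdown. The ULK1 kinase complex receives signals from nutrient sensors, a lipid kinase complex built on VPS34 (encoded by Pik3c3) and beclin 1 then marks the membrane with phosphatidylinositol 3-phosphate, WIPI proteins bind that lipid, and ATG8 proteins are coupled to the growing membrane, where receptors such as p62 (encoded by Sqstm1) tether their cargo. In the liver, autophagy supplies amino acids during fasting and removes damaged organelles and protein aggregates, and selective autophagy of the endoplasmic reticulum (ER), named ER-phagy, trims that organelle when unfolded proteins accumulate.

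Liver RNA came from adult male mice on a C57Bl6 background (C57BL/6J in the study's methods), either wild type (WT) or lacking the transcription factor NFIL3 (NFIL3 KO, Nfil3 -/-), the WT animals being littermates. Mice of each genotype received vehicle (dextrose) or tunicamycin, which blocks N-linked glycosylation and thereby causes ER stress, as 1 injection into the peritoneum of 1 µg per g of body weight, and the liver was taken 8 h later. Each of the 4 groups (WT vehicle, WT tunicamycin, NFIL3 KO vehicle and NFIL3 KO tunicamycin) holds 5 arrays of 5 separate mice, 20 arrays in all, and all mice of the knockout groups carried the deletion in the whole animal. Values are log2 signals, on which a difference of 1 is a 2-fold difference, and a signal cannot be compared between genes, because probes differ in brightness. RNA was extracted from whole liver, where fewer cells of a type and less RNA per cell cannot be told apart. Below, "rose" and "fell" are used for differences with an adjusted p under 0.05 (limma, Benjamini-Hochberg over all 22180 genes), and array values are listed from replicate 1 to replicate 5.

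The arrays matched their labels where this could be checked. Nfil3 signal was 7.42 to 8.55 in the WT tunicamycin arrays and 4.83 to 5.99 in the NFIL3 KO tunicamycin arrays (difference -2.75, adjusted p = 4.09e-07), and under vehicle the WT arrays read 5.79 to 6.95 and the NFIL3 KO arrays 5.18 to 5.70 (difference -1.03, adjusted p = 0.227), although the sources used here do not say whether its probes lie in the deleted part. Hspa5, the ER chaperone BiP, was 9.45 to 9.92 in all vehicle arrays and 11.78 to 12.00 in all tunicamycin arrays. On the first principal component of all genes, NFIL3 KO tunicamycin replicate 3 lay at 22.85, apart from the other 4 arrays of its group at 34.90 to 41.78, and on the second component WT tunicamycin replicates 1 and 2 lay at 18.87 and 22.05, above the other WT tunicamycin arrays; calls that changed without these arrays are given with and without them, as are the differences of Map1lc3b, Vmp1 and Pik3c3, which are among those that changed sign. Of 8 hepatocyte markers, 4 fell under tunicamycin in both genotypes, with the mean level of the list at 11.92 to 12.10 in the vehicle arrays and 11.61 to 11.84 in the tunicamycin arrays. The Kupffer cell markers Adgre1 and Marco rose in WT livers (2 of 10 markers) and none of the 10 rose in NFIL3 KO livers, 3 of 8 sinusoidal endothelial markers fell in WT and 2 of 8 in NFIL3 KO livers, 1 of 8 stellate cell markers (Col3a1) fell in each genotype, 1 of 5 cholangiocyte markers (Sox9) fell in WT livers, and none of the neutrophil, T, NK or B cell markers passed the test. Of all genes, 13.7% rose and 13.7% fell in WT livers, and 13.5% and 13.7% in NFIL3 KO livers. Among genes with a group mean at or above the median of all values (4.70), 22.1% rose and 21.4% fell in WT livers. In NFIL3 KO livers these shares were 21.9% and 21.7%. Whether any marker count exceeds such shares was not tested, so the counts are not read as changes in cell types. The part of these marker differences in the values of the autophagy genes was not tested.

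Tunicamycin moved the autophagy genes in both directions. In WT livers, 10 of the 38 genes rose, 7 fell and 21 did not pass the test. The 17 that passed are 44.7% of the list, against 27.4% of all genes tested, but also against 43.4% of the 13174 genes with a mean in at least 1 group at or above the median of all values (4.70). All 38 autophagy genes meet that limit, Vmp1 through its NFIL3 KO groups only, and most lie well above it, so that these genes are not a set matched on brightness. By direction, 26.3% of the list rose and 18.4% fell, against 13.7% and 13.7% of all genes and 22.1% and 21.4% of those brighter genes. In NFIL3 KO livers, 8 genes rose, 8 fell and 22 did not pass the test, which is 42.1% of the list against 27.2% of all genes (13.5% rose and 13.7% fell) and 43.6% of the brighter genes. The median difference over the 38 genes was 0.03 in WT livers and -0.03 in NFIL3 KO livers, and over all genes it was -0.03 in both. After scaling by cyclic loess, the median over the 38 genes was -0.03 in WT and -0.07 in NFIL3 KO livers. Over all genes it was then -0.02 in both.

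The same 8 genes rose in both genotypes (Rb1cc1, Atg13, Ambra1, Wipi1, Wipi2, Atg4d, Atg12 and Sqstm1), and 6 genes fell in both (Ulk1, Ulk2, Atg101, Atg14, Atg7 and Ccpg1, of which the WT call of Ccpg1 was lost in 19 of 31 alternatives). Across all genes, 11.4% rose in both genotypes and 10.6% fell in both. Shares among the brighter genes were not worked out for calls in both genotypes or for groups without overlap. Whether these counts exceed those of equally bright genes was therefore not tested. No autophagy gene rose in one genotype and fell in the other, 3 passed the test only in WT livers (Uvrag, Atg16l1 and Tfe3), 2 only in NFIL3 KO livers (Atg9a and Gabarapl2), and 19 in neither. For 13 genes the WT arrays of both treatments did not overlap (9 higher and 4 lower under tunicamycin, against 22.2% of all genes in either direction), and for 15 genes the NFIL3 KO arrays did not (7 higher and 8 lower, against 20.9%). Without NFIL3 KO tunicamycin replicate 3, 10 genes rose and 9 fell in NFIL3 KO livers, with all 16 calls kept. Without WT tunicamycin replicates 1 and 2, a choice made after the arrays were seen, 10 rose and 5 fell in WT livers: Atg12, Atg16l1 and Ccpg1 no longer passed and Gabarap did. The differences of Atg16l1 (-0.33, SE 0.12, adjusted p = 0.0589) and Ccpg1 (-0.30, SE 0.12, adjusted p = 0.0711) were then larger than with all arrays. Their standard errors were larger too.

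**Figure D1:**
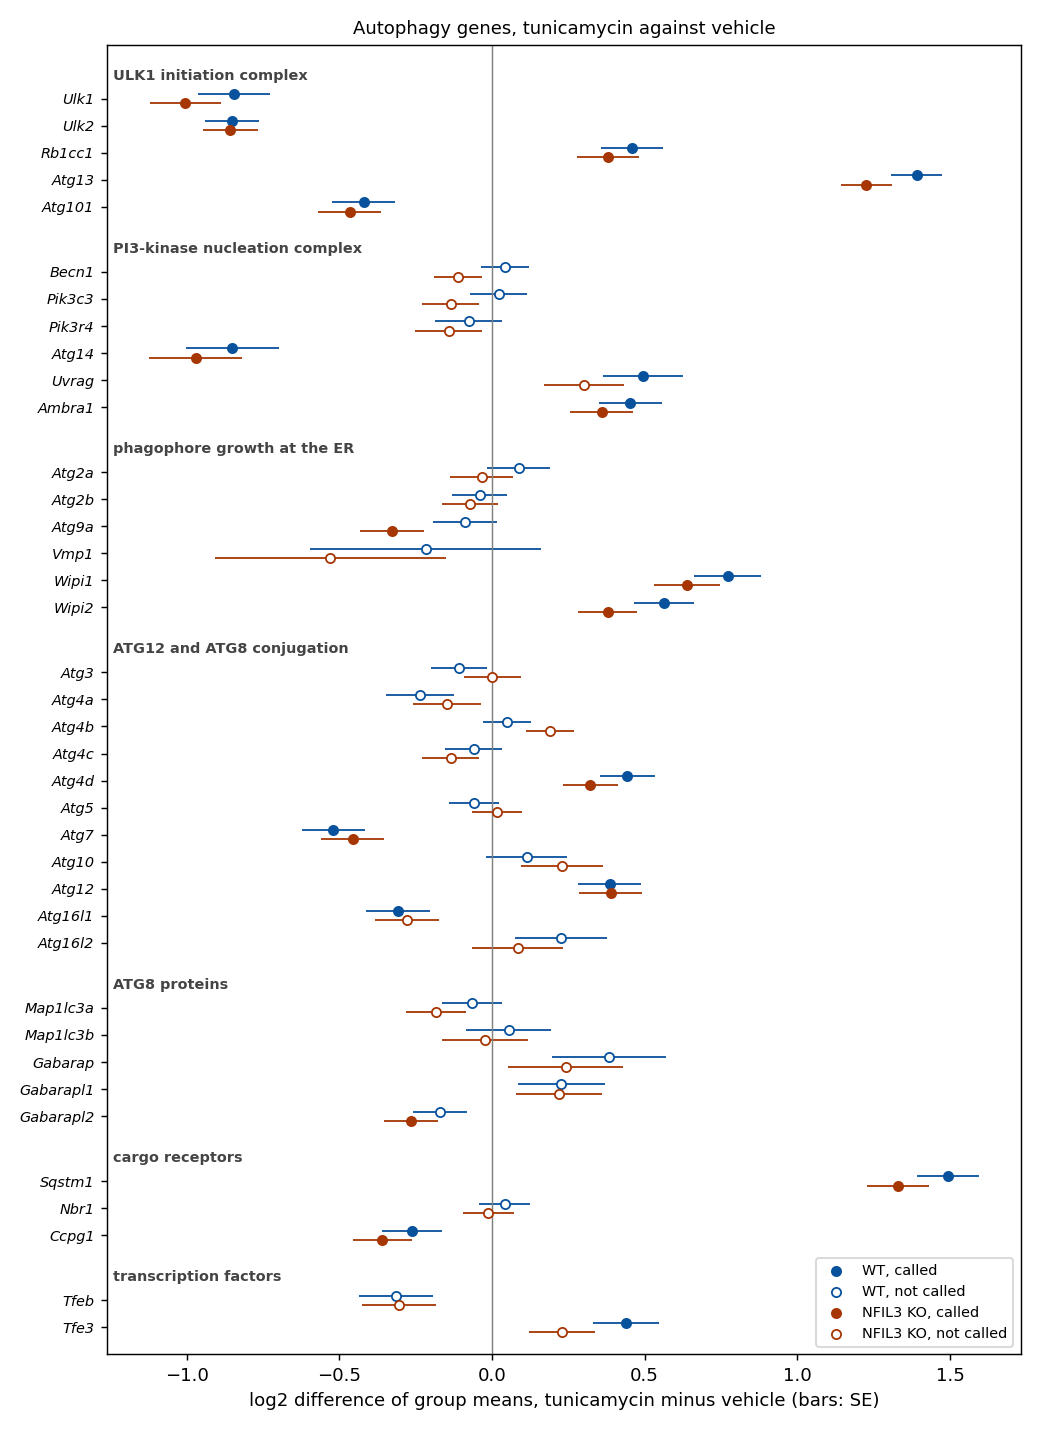
Log2 difference of group means, tunicamycin minus vehicle (x axis), for each of the 38 autophagy genes grouped by role, in WT (blue) and NFIL3 KO (orange-red) livers, 5 arrays per group. Bars are standard errors of the limma fit, filled points passed an adjusted p of 0.05 and open points did not. Sqstm1 and Atg13 lie furthest to the right, and Ulk1, Ulk2 and Atg14 furthest to the left, in both genotypes.

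The genes of the ULK1 initiation complex split in 2 directions. Ulk1 and Ulk2 encode the serine/threonine kinases that start autophagy, and Atg101 encodes a partner that stabilizes ATG13 in the complex. All 3 fell. Atg13, which encodes the subunit that carries the kinase, and Rb1cc1, which encodes the scaffold FIP200, rose. All 5 genes passed the test in both genotypes.

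In WT livers, the Ulk1 signal was 8.74, 8.37, 8.84, 8.54 and 8.75 under vehicle and 7.81, 7.85, 7.95, 7.62 and 7.79 under tunicamycin. Livers of NFIL3 KO mice read 8.57, 9.08, 8.60, 8.79 and 8.57 under vehicle and 7.87, 7.86, 7.84, 7.56 and 7.46 under tunicamycin. All 10 tunicamycin arrays lay below all 10 vehicle arrays. Ulk1 fell by 0.84 (SE 0.12, adjusted p = 4.68e-06) in WT livers, a 1.79-fold decrease, and fell by 1.00 (SE 0.12, adjusted p = 4.33e-07) in NFIL3 KO livers. The related kinase gene Ulk2 measured 9.20, 9.03, 9.12, 9.06 and 9.21 in WT livers under vehicle and 8.28, 8.43, 8.35, 8.31 and 7.99 under tunicamycin. In the NFIL3 KO groups, Ulk2 measured 8.84, 9.01, 9.07, 9.04 and 8.84 under vehicle and 8.19, 8.13, 8.23, 7.98 and 8.01 under tunicamycin. As for Ulk1, no tunicamycin array reached the lowest vehicle array, with WT tunicamycin replicate 5 and NFIL3 KO tunicamycin replicate 4 the lowest. Its difference was -0.85 (SE 0.09, adjusted p = 8.86e-08) in WT and -0.86 (SE 0.09, adjusted p = 8.83e-08) in NFIL3 KO livers.

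Atg13 had the second largest rise of the 38 genes. Its 5 WT vehicle arrays measured 8.55, 8.37, 8.54, 8.38 and 8.46, and the 5 WT tunicamycin arrays 9.76, 9.93, 9.78, 9.85 and 9.93. The NFIL3 KO arrays measured 8.39, 8.61, 8.37, 8.58 and 8.56 under vehicle and 9.90, 9.68, 9.53, 9.79 and 9.73 under tunicamycin. The lowest tunicamycin array of the study, NFIL3 KO replicate 3, lay well above the highest vehicle array. Atg13 rose by 1.39 (SE 0.08, adjusted p = 1.46e-11) in WT livers, a 2.62-fold increase, and by 1.23 (SE 0.08, adjusted p = 1.45e-10) in NFIL3 KO livers. Rb1cc1 moved the same way by a smaller amount. It measured 8.36, 8.52, 8.21, 8.00 and 8.30 in WT vehicle arrays and 8.82, 8.94, 8.72, 8.60 and 8.59 in WT tunicamycin arrays. With NFIL3 deleted, Rb1cc1 was 8.21, 8.46, 8.20, 8.38 and 8.39 under vehicle and 8.83, 8.85, 8.52, 8.68 and 8.66 under tunicamycin. The treatments did not overlap in either genotype, although WT vehicle replicate 2 and NFIL3 KO tunicamycin replicate 3 both stood at 8.52. Rb1cc1 rose by 0.46 (SE 0.10, adjusted p = 0.00118) in WT and by 0.38 (SE 0.10, adjusted p = 0.00611) in NFIL3 KO livers.

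Atg101 measured 7.35, 7.07, 7.36, 7.25 and 7.39 in WT livers under vehicle and 7.02, 6.93, 7.08, 6.52 and 6.78 under tunicamycin. Here WT vehicle replicate 2 lay just below WT tunicamycin replicate 3, so that the WT groups overlapped. The NFIL3 KO values were 7.11, 7.31, 7.34, 7.41 and 7.22 under vehicle and 6.89, 6.66, 6.79, 6.79 and 6.93 under tunicamycin, with no overlap. The differences were -0.42 (SE 0.10, adjusted p = 0.00284) and -0.47 (SE 0.10, adjusted p = 0.00111).

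The promoter windows of Ulk1 and Atg13 are shown because these genes of 1 complex moved in opposite directions. Each window runs from 250 bases before to 50 bases after the transcription start of RefSeq (GRCm38.p6), 5′ to 3′ on the strand of the gene, for Ulk1 at chr5:110810032-110810331, minus strand and for Atg13 at chr2:91710543-91710842, minus strand. Capitals mark GC boxes (GGGCGG or its reverse complement) in Ulk1 and the antioxidant response element core TGACNNNGC, read on the opposite strand, in Atg13.
Ulk1: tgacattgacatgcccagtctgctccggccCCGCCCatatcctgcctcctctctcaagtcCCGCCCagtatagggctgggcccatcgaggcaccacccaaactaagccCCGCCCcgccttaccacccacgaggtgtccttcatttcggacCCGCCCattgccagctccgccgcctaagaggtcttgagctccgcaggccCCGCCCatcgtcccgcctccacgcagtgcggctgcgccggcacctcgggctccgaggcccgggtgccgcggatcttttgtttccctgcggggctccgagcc
Atg13: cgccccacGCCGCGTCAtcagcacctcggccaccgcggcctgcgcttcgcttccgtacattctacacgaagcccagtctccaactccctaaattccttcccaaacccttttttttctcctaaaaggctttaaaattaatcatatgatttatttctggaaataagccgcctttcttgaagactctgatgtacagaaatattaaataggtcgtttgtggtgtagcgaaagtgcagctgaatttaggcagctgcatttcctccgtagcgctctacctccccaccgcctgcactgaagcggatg
The Ulk1 window holds 5 GC boxes and the Atg13 window none. GC boxes also lie in the windows of Sqstm1, Wipi1, Wipi2 and Atg4d, which rose, and not in that of Atg7, which fell. The core marked in Atg13 also lies in the window of Ulk2, which fell. Both motifs were added to the search after the windows had been seen, and their link to the direction of change was not tested.

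**Figure D2:**
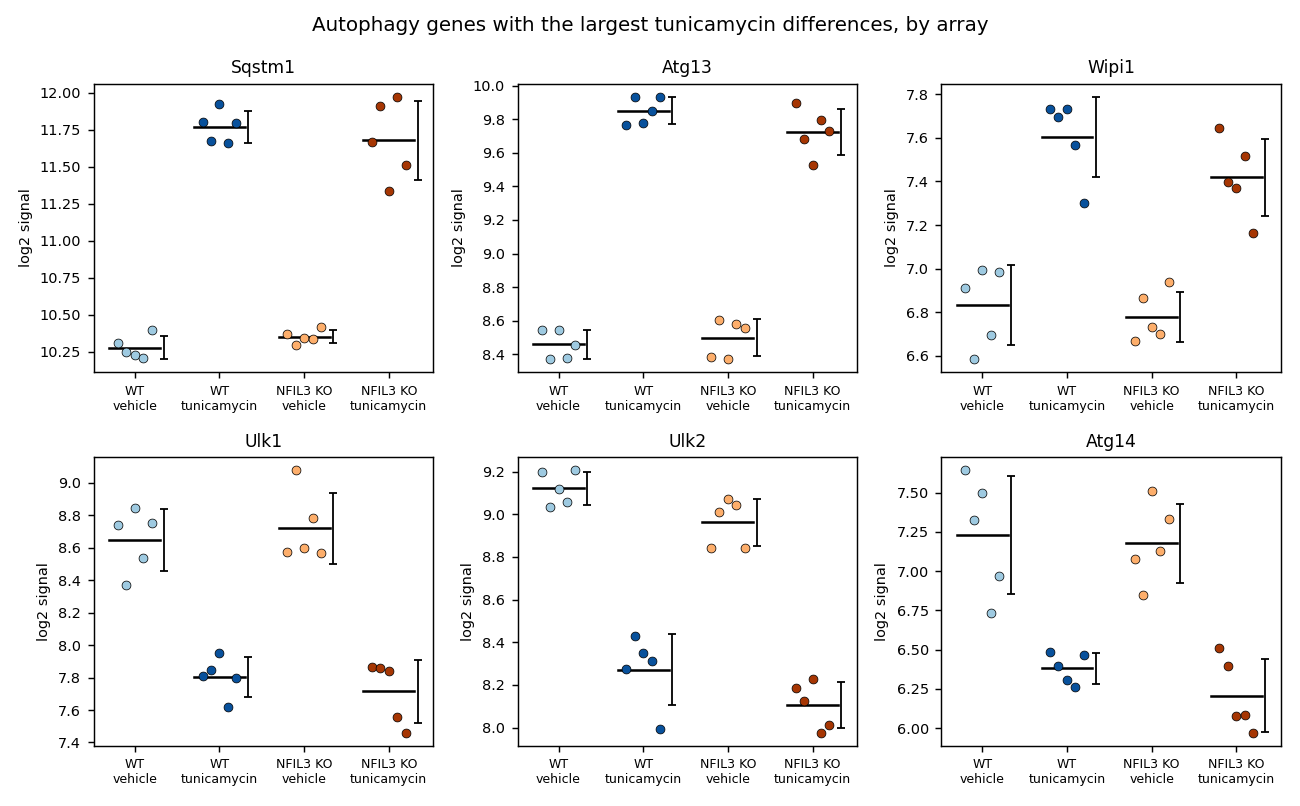
Log2 signal (y axis, not starting at 0) of every array for Sqstm1, Atg13, Wipi1, Ulk1, Ulk2 and Atg14 in the 4 groups (x axis), 5 arrays each, with the group mean (line) and SD (bar beside the points). In each of the 6 genes the tunicamycin arrays and the vehicle arrays of a genotype do not overlap.

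In the lipid kinase complex, the core did not pass the test, whereas Atg14, which encodes the subunit that directs the kinase to autophagy, fell. Becn1, encoding beclin 1, measured 7.39, 7.36, 7.48, 7.39 and 7.52 in WT vehicle arrays and 7.34, 7.62, 7.51, 7.45 and 7.44 in WT tunicamycin arrays. Becn1 in the knockout was 7.42, 7.42, 7.48, 7.39 and 7.49 under vehicle and 7.38, 7.29, 7.35, 7.49 and 7.13 under tunicamycin. The groups overlapped in both genotypes, and 8 h of tunicamycin gave a Becn1 difference of 0.04 (SE 0.08, adjusted p = 0.765) with a 95% confidence interval of -0.12 to 0.21 in WT livers. The corresponding NFIL3 KO difference was -0.11 (SE 0.08, adjusted p = 0.367), with an interval of -0.28 to 0.05. Pik3c3, encoding the lipid kinase VPS34, differed by 0.02 (SE 0.09, adjusted p = 0.906) in WT (interval -0.17 to 0.21) and by -0.13 (SE 0.09, adjusted p = 0.346) in NFIL3 KO livers (interval -0.33 to 0.06). Without WT tunicamycin replicates 1 and 2 the WT difference of Pik3c3 was -0.08 (adjusted p = 0.637). Pik3r4, encoding its regulatory subunit VPS15, differed by -0.08 (SE 0.11, adjusted p = 0.689) and -0.14 (SE 0.11, adjusted p = 0.418). The width of these intervals leaves small changes in either direction possible.

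Atg14 measured 7.64, 7.32, 7.50, 6.73 and 6.97 in WT livers under vehicle, a wide spread, and 6.48, 6.39, 6.30, 6.26 and 6.47 under tunicamycin. The NFIL3 KO values of Atg14 were 7.07, 6.85, 7.51, 7.13 and 7.33 under vehicle and 6.51, 6.40, 6.07, 6.08 and 5.97 under tunicamycin. Every tunicamycin array lay below every vehicle array. Atg14 fell by 0.85 (SE 0.15, adjusted p = 0.000127) in WT and fell by 0.97 (SE 0.15, adjusted p = 2.58e-05) in NFIL3 KO livers, which is a 1.80-fold and a 1.96-fold decrease. Averaged over both genotypes this was the second largest fall, after Ulk1, and its promoter window is shown for that reason (RefSeq, GRCm38.p6, chr14:47568385-47568684, minus strand). Capitals mark an E-box core, CACGTG, that starts 1 base before the transcription start, and 2 GC boxes.
Atg14: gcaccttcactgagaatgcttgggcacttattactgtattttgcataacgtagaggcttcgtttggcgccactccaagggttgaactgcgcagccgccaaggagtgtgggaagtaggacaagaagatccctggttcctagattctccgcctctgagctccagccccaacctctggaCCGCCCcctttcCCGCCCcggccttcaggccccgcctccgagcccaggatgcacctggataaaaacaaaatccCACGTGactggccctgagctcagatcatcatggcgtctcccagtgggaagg

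Of the other regulators of the lipid kinase, Ambra1 rose in both genotypes and Uvrag in WT livers. Ambra1 encodes a scaffold that links beclin 1 to the ULK1 complex and to ubiquitin ligases. It measured 7.39, 7.27, 7.54, 7.39 and 7.56 in WT vehicle arrays and 7.90, 7.99, 7.87, 7.82 and 7.84 in WT tunicamycin arrays. Knockout livers measured 7.22, 7.57, 7.52, 7.42 and 7.45 under vehicle and 7.90, 7.83, 7.42, 8.06 and 7.76 under tunicamycin. The WT groups did not overlap, and in NFIL3 KO livers the array that stands apart, tunicamycin replicate 3, was the only tunicamycin array within the vehicle range. Ambra1 rose by 0.45 (SE 0.10, adjusted p = 0.00146) in WT and by 0.36 (SE 0.10, adjusted p = 0.0102) in NFIL3 KO livers. Uvrag, which encodes the subunit that takes the place of ATG14 in the complex on endosomes, had means of 8.28 ± 0.12 and 8.78 ± 0.23 (SD, n = 5) in WT vehicle and tunicamycin arrays and rose by 0.50 (SE 0.13, adjusted p = 0.00527). Its NFIL3 KO means were 8.36 ± 0.12 and 8.66 ± 0.31 (SD, n = 5), a difference of 0.30 (SE 0.13, adjusted p = 0.0981). NFIL3 KO tunicamycin replicate 3 had the lowest Uvrag signal of the 10 NFIL3 KO arrays (8.21), and without it the difference was 0.42 (adjusted p = 0.00977). The genotypes' Uvrag responses differed by -0.19 (SE 0.18, adjusted p = 1).

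Among the 6 genes of phagophore growth, the WIPI genes rose and the lipid transport genes mostly did not pass the test. WIPI1 and WIPI2 bind phosphatidylinositol 3-phosphate on the young membrane, and WIPI2 recruits the ATG16L1 complex there. Wipi1 measured 6.91, 6.59, 6.99, 6.70 and 6.98 in WT vehicle arrays and 7.73, 7.70, 7.73, 7.57 and 7.30 in WT tunicamycin arrays. The knockout arrays read 6.67, 6.86, 6.73, 6.70 and 6.94 under vehicle and 7.64, 7.40, 7.37, 7.51 and 7.16 under tunicamycin. No array of one treatment reached the range of the other within a genotype. Wipi1 rose by 0.77 (SE 0.11, adjusted p = 6.14e-06) in WT, a 1.71-fold increase, and by 0.64 (SE 0.11, adjusted p = 7.07e-05) in NFIL3 KO livers. Wipi2 measured 8.08, 7.85, 8.20, 8.11 and 8.28 in WT livers under vehicle and 8.50, 8.76, 8.60, 8.79 and 8.68 under tunicamycin. The NFIL3 KO arrays gave 8.31, 8.06, 8.04, 8.30 and 8.28 for vehicle and 8.66, 8.43, 8.61, 8.76 and 8.43 for tunicamycin. Again the treatments did not overlap within a genotype, and Wipi2 rose by 0.56 (SE 0.10, adjusted p = 8.29e-05) in WT and by 0.38 (SE 0.10, adjusted p = 0.00459) in NFIL3 KO livers.

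ATG2A and ATG2B move lipid from the ER to the phagophore, and ATG9A, the transmembrane protein of the pathway, redistributes lipid across its bilayer. Atg2a differed by 0.09 (SE 0.10, adjusted p = 0.61) in WT and -0.03 (SE 0.10, adjusted p = 0.873) in NFIL3 KO livers, and Atg2b by -0.04 (SE 0.09, adjusted p = 0.814) and -0.07 (SE 0.09, adjusted p = 0.659). Atg9a ranged from 6.96 to 7.63 in WT vehicle and from 7.13 to 7.37 in WT tunicamycin arrays, which overlapped, with a difference of -0.09 (SE 0.10, adjusted p = 0.615). Its NFIL3 KO arrays ranged from 7.06 to 7.39 under vehicle and from 6.86 to 7.01 under tunicamycin, and fell by 0.33 (SE 0.10, adjusted p = 0.0207). That call was lost without NFIL3 KO vehicle replicate 1 (adjusted p = 0.0559) or replicate 3 (adjusted p = 0.0565), and the difference between the genotypes' responses, -0.24 (SE 0.15, adjusted p = 1), did not pass the test. Vmp1 encodes an ER membrane protein that scrambles lipids where the phagophore leaves the ER. Its arrays spread from 3.59 to 6.40, the widest range of the 38 genes, and it differed by -0.22 (SE 0.38, adjusted p = 0.75) in WT and -0.53 (SE 0.38, adjusted p = 0.369) in NFIL3 KO livers, with standard errors above those of the other 37 genes. Without WT tunicamycin replicates 1 and 2 the WT difference of Vmp1 was 0.24 (adjusted p = 0.778).

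The conjugation genes encode a pair of ubiquitin-like systems. ATG7 is the E1-like enzyme of both, ATG10 and ATG3 are their E2-like enzymes, ATG12 is joined to ATG5 and then sits with ATG16L1 to place ATG8 proteins on lipid, and the ATG4 proteases trim ATG8 proteins before and after use. Of these 11 genes, 2 rose (Atg4d and Atg12) and 2 fell (Atg7 and Atg16l1) in WT livers. In NFIL3 KO livers, Atg4d and Atg12 rose and Atg7 fell.

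Atg7 measured 7.75, 7.32, 7.68, 7.91 and 7.70 in WT vehicle arrays and 7.12, 7.20, 7.34, 7.23 and 6.87 in WT tunicamycin arrays. Deletion of NFIL3 gave 7.49, 7.53, 7.55, 7.58 and 7.44 under vehicle and 7.09, 7.09, 6.90, 7.23 and 7.00 under tunicamycin. WT vehicle replicate 2 and WT tunicamycin replicate 3 crossed narrowly, and the NFIL3 KO groups did not overlap. Atg7 fell by 0.52 (SE 0.10, adjusted p = 0.000387) in WT and fell by 0.46 (SE 0.10, adjusted p = 0.00147) in NFIL3 KO livers. Atg12 moved the other way. Its WT values were 7.31, 7.49, 7.18, 7.18 and 7.16 under vehicle and 7.84, 7.75, 7.45, 7.65 and 7.56 under tunicamycin. Its NFIL3 KO values were 7.30, 7.35, 7.22, 7.32 and 7.49 under vehicle and 7.80, 7.84, 7.39, 7.90 and 7.71 under tunicamycin. The groups overlapped in both genotypes, by WT vehicle replicate 2 and by NFIL3 KO tunicamycin replicate 3. Atg12 rose by 0.39 (SE 0.10, adjusted p = 0.00596) in WT and by 0.39 (SE 0.10, adjusted p = 0.00558) in NFIL3 KO livers, and in WT livers the rise was 0.29 (adjusted p = 0.0833) without tunicamycin replicates 1 and 2.

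Atg4d was the protease gene that passed the test. Its means were 6.92 ± 0.16 and 7.37 ± 0.15 (SD, n = 5) in WT vehicle and tunicamycin arrays, which did not overlap, and it rose by 0.44 (SE 0.09, adjusted p = 0.000492). Atg4d had NFIL3 KO means of 6.89 ± 0.04 and 7.21 ± 0.11 (SD, n = 5), also without overlap, and it rose by 0.32 (SE 0.09, adjusted p = 0.00858). The other 3 protease genes did not pass the test, with WT differences of -0.24 for Atg4a (adjusted p = 0.139), 0.05 for Atg4b (adjusted p = 0.729) and -0.06 for Atg4c (adjusted p = 0.719). Atg4b differed in the knockout by 0.19 (SE 0.08, adjusted p = 0.0836), with the groups not overlapping. Atg16l1 fell by 0.31 (SE 0.10, adjusted p = 0.03) in WT livers, where the groups overlapped, and its difference in NFIL3 KO livers was -0.28 (SE 0.10, adjusted p = 0.0518). The WT call of Atg16l1 was lost in 6 of the 20 fits that left out 1 array, with adjusted p up to 0.0858. Atg3, Atg5, Atg10 and Atg16l2 did not pass the test in either genotype. Their WT differences lay between -0.11 for Atg3 (interval -0.30 to 0.08) and 0.23 for Atg16l2 (interval -0.08 to 0.54), with -0.06 for Atg5 (interval -0.23 to 0.11).

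None of the 5 ATG8 genes passed the test in WT livers, and Gabarapl2 alone did in NFIL3 KO livers, when the probesets of a gene were averaged. Map1lc3b encodes LC3B, the ATG8 protein most used as a marker of autophagosomes. It measured 9.93, 9.89, 9.94, 9.66 and 9.77 in WT vehicle arrays and 10.28, 10.20, 9.55, 9.85 and 9.58 in WT tunicamycin arrays. The NFIL3 KO arrays read 9.38, 9.93, 9.94, 9.43 and 9.88 under vehicle and 9.59, 9.70, 9.80, 9.72 and 9.64 under tunicamycin. WT tunicamycin replicates 1 and 2 were the highest of the 20 arrays, and the other 3 WT tunicamycin arrays lay within or below the vehicle range. The difference was 0.05 (SE 0.14, adjusted p = 0.837) in WT livers, with an interval of -0.24 to 0.35, and -0.02 (SE 0.14, adjusted p = 0.948) in NFIL3 KO livers, with an interval of -0.31 to 0.27. Without WT tunicamycin replicates 1 and 2 the WT difference was -0.18 (adjusted p = 0.428). Map1lc3a, which encodes LC3A, differed by -0.07 (SE 0.10, adjusted p = 0.706) and -0.18 (SE 0.10, adjusted p = 0.208).

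The GABARAP branch acts late in closing the autophagosome and in its fusion with lysosomes. Its 2 Gabarap probesets differed in the same direction between treatments, but the dimmer one had the larger standard error and did not pass the test. The brighter probeset read 11.18, 11.21, 11.33, 11.31 and 11.27 in WT vehicle arrays and 11.70, 11.59, 11.63, 11.78 and 11.82 in WT tunicamycin arrays. On NFIL3 KO arrays it read 11.24, 11.21, 11.21, 11.10 and 11.19 under vehicle and 11.48, 11.52, 11.37, 11.47 and 11.63 under tunicamycin. The treatments did not overlap in either genotype on this probeset, and tested among all probesets it rose by 0.44 (SE 0.07, adjusted p = 0.000109) in WT and by 0.30 (SE 0.07, adjusted p = 0.00446) in NFIL3 KO livers. The dimmer probeset read 8.82, 8.07, 8.14, 8.97 and 8.73 in WT vehicle arrays and 7.91, 7.49, 9.30, 9.75 and 9.92 in WT tunicamycin arrays. Its WT tunicamycin arrays split, with replicates 1 and 2 below all WT vehicle arrays and the other 3 above them, and its difference was 0.32 (SE 0.36, adjusted p = 0.621). In NFIL3 KO livers the dimmer probeset ran from 8.79 to 9.51 under vehicle and from 8.88 to 9.63 under tunicamycin. Its difference there was 0.18 (SE 0.36, adjusted p = 0.825). The mean of both probesets gave 0.38 (SE 0.19, adjusted p = 0.147) in WT and 0.24 (SE 0.19, adjusted p = 0.418) in NFIL3 KO livers, and 0.80 (adjusted p = 5.59e-05) in WT livers without tunicamycin replicates 1 and 2. Gabarapl1 differed by 0.23 (SE 0.14, adjusted p = 0.277) in WT and by 0.22 (SE 0.14, adjusted p = 0.31) in NFIL3 KO livers, where neither passed the test. Gabarapl2, which encodes GATE-16, differed by -0.17 (SE 0.09, adjusted p = 0.174) in WT livers with overlapping groups, and fell by 0.26 (SE 0.09, adjusted p = 0.0263) in NFIL3 KO livers, a call that was lost in 4 of the 20 fits without 1 array (adjusted p up to 0.0808). Relatives of this family are alike in sequence, and whether probes are shared between them was not tested.

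**Figure D3:**
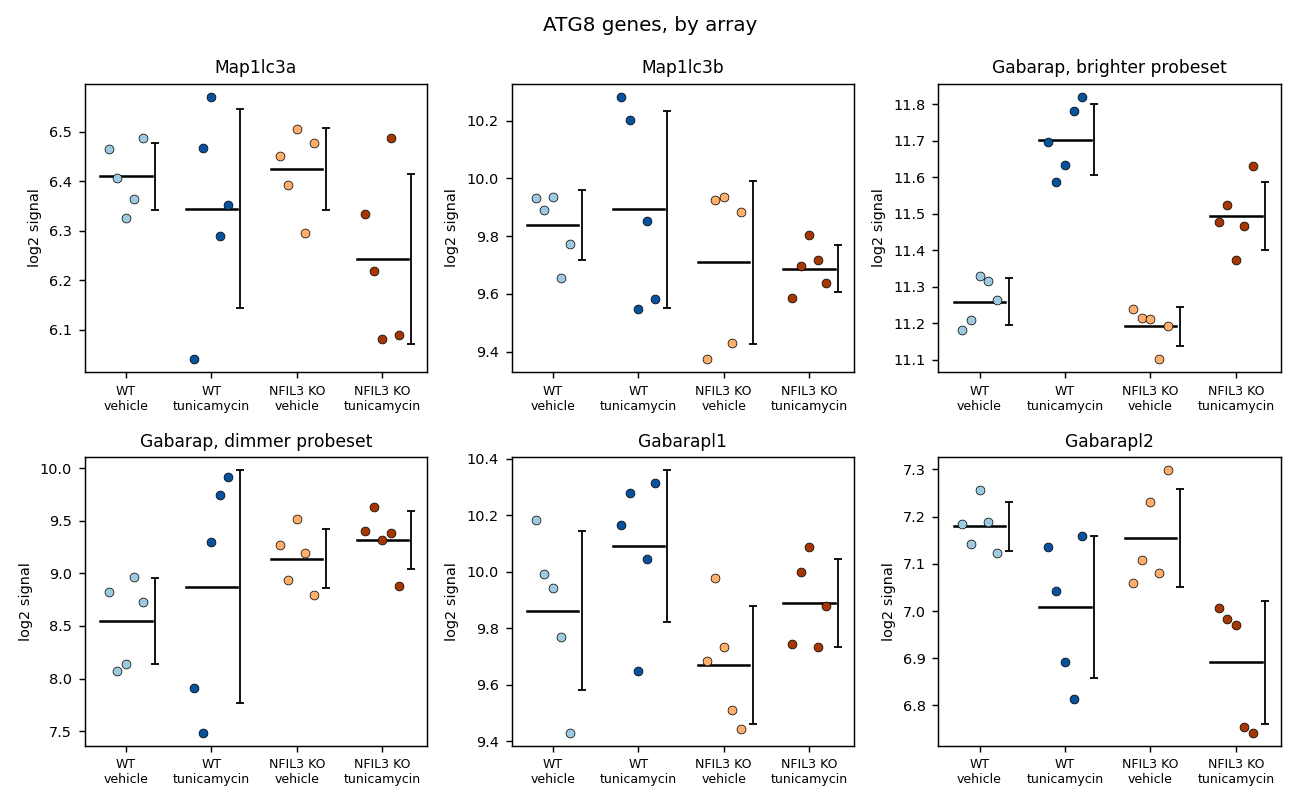
Log2 signal (y axis, not starting at 0) of every array for the 5 ATG8 genes in the 4 groups (x axis), 5 arrays each, with the group mean (line) and SD (bar beside the points); the 2 Gabarap probesets are drawn apart. Treatments separate on the brighter Gabarap probeset in both genotypes and for Gabarapl2 in NFIL3 KO livers, and overlap elsewhere.

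Among the cargo receptors, Sqstm1 had the largest rise of the 38 genes in both genotypes. It encodes p62, which binds ubiquitin chains and ATG8 proteins at once and is itself degraded by autophagy. In WT livers, Sqstm1 measured 10.31, 10.25, 10.23, 10.20 and 10.39 under vehicle and 11.80, 11.67, 11.92, 11.66 and 11.80 under tunicamycin. Knockout arrays gave 10.37, 10.30, 10.34, 10.34 and 10.41 under vehicle and 11.67, 11.91, 11.34, 11.97 and 11.51 under tunicamycin. The vehicle arrays lay within a narrow band, all 10 tunicamycin arrays lay far above it, and NFIL3 KO tunicamycin replicate 3 was the lowest of these. Sqstm1 rose by 1.49 (SE 0.10, adjusted p = 1.12e-10) in WT livers, a 2.81-fold increase, and by 1.33 (SE 0.10, adjusted p = 8.22e-10) in NFIL3 KO livers, a 2.51-fold increase. Its promoter window (RefSeq, GRCm38.p6, chr11:50210771-50211070, minus strand) is shown as that of the gene with the largest rise. Capitals mark 3 GC boxes and a TATAAA that starts 1 base before the transcription start of this window.
Sqstm1: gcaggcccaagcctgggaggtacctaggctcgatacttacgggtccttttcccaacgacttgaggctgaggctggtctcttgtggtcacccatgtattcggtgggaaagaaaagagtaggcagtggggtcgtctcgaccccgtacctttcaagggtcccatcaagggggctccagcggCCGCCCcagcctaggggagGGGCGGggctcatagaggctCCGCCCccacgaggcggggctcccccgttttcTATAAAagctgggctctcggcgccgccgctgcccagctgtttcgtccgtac

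The other receptors did not follow Sqstm1. NBR1 is a receptor of similar domain order that binds ubiquitinated cargo together with p62. Nbr1 had means of 9.78 ± 0.08 and 9.82 ± 0.09 (SD, n = 5) in WT vehicle and tunicamycin arrays, with a difference of 0.04 (SE 0.08, adjusted p = 0.787) and an interval of -0.13 to 0.21. The knockout difference of Nbr1 was -0.01 (SE 0.08, adjusted p = 0.952), with an interval of -0.19 to 0.16. CCPG1 is an ER-phagy receptor in the ER membrane, described as a target of the unfolded protein response in cultured cells. Ccpg1 measured 8.21, 8.10, 8.39, 8.12 and 8.18 in WT vehicle arrays and 8.03, 7.95, 8.01, 8.07 and 7.63 in WT tunicamycin arrays. With NFIL3 deleted it was 8.31, 8.25, 8.42, 8.19 and 8.38 under vehicle and 8.10, 8.02, 8.06, 7.76 and 7.83 under tunicamycin. The treatments did not overlap in either genotype, and WT tunicamycin replicate 5 lay far below the other 4 arrays of its group. Ccpg1 fell by 0.26 (SE 0.10, adjusted p = 0.0481) in WT and fell by 0.36 (SE 0.10, adjusted p = 0.00649) in NFIL3 KO livers. The WT call was near the threshold: without WT tunicamycin replicate 5 the difference was -0.18 (adjusted p = 0.16), and without WT vehicle replicate 3 it was -0.21 (adjusted p = 0.138). Over 31 alternatives the adjusted p of the WT difference ranged from 0.0141 to 0.16.

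TFEB and TFE3 are related transcription factors that switch on lysosomal and autophagy genes when they enter the nucleus, so that their mRNA does not report their activity. Tfeb measured 5.05, 5.00, 4.87, 5.02 and 4.87 in WT vehicle arrays and 4.50, 4.67, 4.97, 4.72 and 4.38 in WT tunicamycin arrays. Knockout values of Tfeb were 4.98, 5.20, 5.06, 5.10 and 4.76 under vehicle and 4.63, 4.48, 5.11, 4.81 and 4.55 under tunicamycin. The groups overlapped, with WT tunicamycin replicate 3 and NFIL3 KO tunicamycin replicate 3 the high arrays of their groups. Tfeb was dim: its means were 4.96 and 4.65 in WT and 5.02 and 4.72 in NFIL3 KO livers, under vehicle and tunicamycin. These lie close to the median of all values (4.70). The difference was -0.31 (SE 0.12, adjusted p = 0.0611) in WT and -0.30 (SE 0.12, adjusted p = 0.0701) in NFIL3 KO livers, and without NFIL3 KO tunicamycin replicate 3, which also enters the common variance, it was -0.40 (adjusted p = 0.00881) in NFIL3 KO and -0.31 (adjusted p = 0.0309) in WT livers. Tfe3 rose in WT livers. Its means were 7.00 ± 0.09 and 7.44 ± 0.05 (SD, n = 5) in WT vehicle and tunicamycin arrays, without overlap, and it rose by 0.44 (SE 0.11, adjusted p = 0.00291). Its knockout means were 7.12 ± 0.07 and 7.35 ± 0.31 (SD, n = 5), with a difference of 0.23 (SE 0.11, adjusted p = 0.136), which was 0.34 (adjusted p = 0.00416) without tunicamycin replicate 3, where Tfe3 was 6.89. The difference between the genotypes' Tfe3 responses was -0.21 (SE 0.15, adjusted p = 1).

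Genes around this core machinery were read from lists of named genes. Of all genes, 13.7% rose and 13.7% fell in WT livers, and 13.5% rose and 13.7% fell in NFIL3 KO livers. Among the brighter genes defined above, 22.1% rose and 21.4% fell in WT livers, and 21.9% rose and 21.7% fell in NFIL3 KO livers. Of 21 lysosomal hydrolase genes measured, 2 rose (9.52%) and 10 fell (47.6%) in WT livers, and 2 rose (9.52%) and 14 fell (66.7%) in NFIL3 KO livers. Their median differences were -0.32 and -0.37, against -0.03 over all genes in both. Ctsl, encoding the protease cathepsin L, differed by 1.31 in WT livers (adjusted p = 3.18e-10) and 1.51 in NFIL3 KO livers (adjusted p = 4.4e-11). Gusb, encoding beta-glucuronidase, differed by -0.86 in WT livers (adjusted p = 5.56e-06) and -0.85 in NFIL3 KO livers (adjusted p = 7.7e-06). Asah1, encoding acid ceramidase, differed by -0.74 in WT livers (adjusted p = 0.000267) and -0.68 in NFIL3 KO livers (adjusted p = 0.000662). The genes for the lysosomal membrane and its proton pump were mixed. Of these 21 genes, 5 rose (23.8%) and 7 fell (33.3%) in WT, and 5 rose (23.8%) and 8 fell (38.1%) in NFIL3 KO livers. Among them, Npc1, the cholesterol exporter, differed by 0.97 in WT livers (adjusted p = 1.59e-08) and 0.87 in NFIL3 KO livers (adjusted p = 8.37e-08), and Slc36a1, an amino acid transporter, by -1.10 in WT livers (adjusted p = 5.5e-07) and -1.24 in NFIL3 KO livers (adjusted p = 1.06e-07).

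Of 9 other ER-phagy receptor genes, 5 fell (Retreg2, Retreg3, Tex264, Atl3 and Calcoco1), 1 rose (Cdk5rap3) and 3 did not pass the test in each genotype. The 5 that fell are 55.6% of the list, against 13.7% of all genes in each genotype. Of the brighter genes, 21.4% fell in WT and 21.7% in NFIL3 KO livers. Atl3, encoding the receptor atlastin-3 of ER tubules, differed by -1.05 in WT livers (adjusted p = 1.64e-08) and -0.85 in NFIL3 KO livers (adjusted p = 4.31e-07). Retreg3, encoding a reticulon-type receptor of the FAM134 family, differed by -0.90 in WT livers (adjusted p = 6e-07) and -0.99 in NFIL3 KO livers (adjusted p = 1.57e-07). Other cargo receptor genes were mixed, with 3 of 10 rising and 2 falling in each genotype. Stbd1, encoding a glycogen receptor, differed by 1.32 in WT livers (adjusted p = 3.05e-09) and 1.06 in NFIL3 KO livers (adjusted p = 9.16e-08). The mitophagy receptor genes moved apart, Fundc1 by 1.26 in WT livers (adjusted p = 3.94e-08) and 1.62 in NFIL3 KO livers (adjusted p = 9.51e-10), and Bnip3 by -1.03 in WT livers (adjusted p = 3.43e-06) and -0.98 in NFIL3 KO livers (adjusted p = 6.77e-06).

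Of 18 further autophagosome formation genes, 6 rose (33.3%) and 3 fell (16.7%) in each genotype. For all genes these shares were 13.7% and 13.7% in WT, and 13.5% and 13.7% in NFIL3 KO livers. For the brighter genes they were 22.1% and 21.4% in WT, and 21.9% and 21.7% in NFIL3 KO livers. Epg5, encoding a tether that brings autophagosomes to lysosomes, differed by 1.49 in WT livers (adjusted p = 3.93e-09) and 1.37 in NFIL3 KO livers (adjusted p = 1.57e-08). Tmem41b, encoding an ER scramblase that works with VMP1, differed by 1.35 in WT livers (adjusted p = 1.25e-08) and 1.15 in NFIL3 KO livers (adjusted p = 1.47e-07). Of 13 genes of autophagosome fusion, 1 rose (7.69%) and 4 fell (30.8%) in WT and 5 fell (38.5%) in NFIL3 KO livers. The SNARE genes Stx17, Snap29 and Vamp8, whose products join autophagosome and lysosome, fell in both genotypes. Vamp8 differed by -0.89 in WT livers (adjusted p = 1.56e-06) and -1.05 in NFIL3 KO livers (adjusted p = 1.58e-07). Ykt6, another SNARE gene of that step, differed by 0.37 in WT livers (adjusted p = 0.0074) and 0.19 in NFIL3 KO livers (adjusted p = 0.197). Among 23 mTORC1 and AMPK regulator genes, which lie upstream of the ULK1 complex, 9 rose (39.1%) and 8 fell (34.8%) in WT livers. In NFIL3 KO livers, 8 rose (34.8%) and 8 fell (34.8%). Trib3, encoding a pseudokinase that binds AKT, differed by 4.20 in WT livers (adjusted p = 2.11e-14) and 3.84 in NFIL3 KO livers (adjusted p = 1.46e-13). Ddit4, encoding the mTORC1 inhibitor REDD1, differed by 1.63 in WT livers (adjusted p = 1.81e-06) and 2.43 in NFIL3 KO livers (adjusted p = 5.57e-09), and Sesn2, encoding the leucine sensor sestrin 2, by 1.59 in WT livers (adjusted p = 7.55e-07) and 1.68 in NFIL3 KO livers (adjusted p = 3.36e-07).

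Of 13 other transcription factor genes of the pathway, 3 rose (Mitf, Atf4 and Ddit3, 23.1%) and 4 fell (30.8%) in WT livers. The same 3 rose and 6 fell (46.2%) in NFIL3 KO livers. Of all genes, 13.7% rose and 13.7% fell in WT, and 13.5% and 13.7% in NFIL3 KO livers. Of the brighter genes, 22.1% rose and 21.4% fell in WT, and 21.9% and 21.7% in NFIL3 KO livers. Ddit3, encoding CHOP, differed by 5.48 in WT livers (adjusted p = 1.44e-15) and 4.56 in NFIL3 KO livers (adjusted p = 3.15e-14). Atf4, encoding its upstream activator in the stress response, differed by 1.89 in WT livers (adjusted p = 1.85e-11) and 1.71 in NFIL3 KO livers (adjusted p = 1.22e-10). Ppara, encoding a nuclear receptor of the fasting response that induces autophagy genes in mouse liver, differed by -1.68 in WT livers (adjusted p = 1.63e-08) and -1.63 in NFIL3 KO livers (adjusted p = 2.92e-08).

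**Figure D4:**
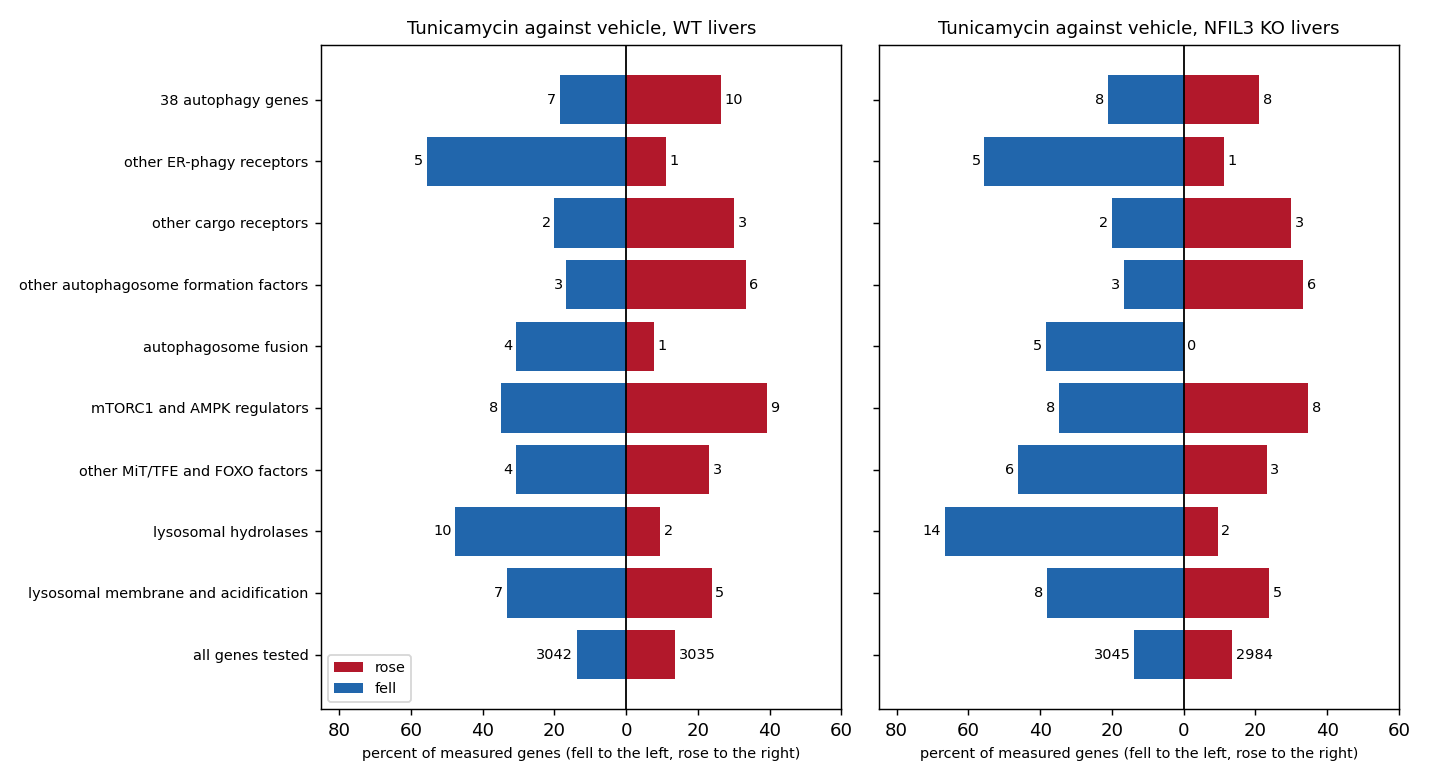
Percent of the measured genes of each list (y axis) that rose (red, to the right) or fell (blue, to the left) under tunicamycin (x axis) in WT and NFIL3 KO livers, 5 arrays per group, with the number of genes at each bar. Lysosomal hydrolases and other ER-phagy receptors have more falls than rises in both genotypes, whereas the 38 autophagy genes have 10 rises and 7 falls in WT and 8 of each in NFIL3 KO livers.

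Whether NFIL3 shapes these genes was asked by comparing the genotypes within each treatment and their responses to tunicamycin. None of the 38 autophagy genes passed the test between NFIL3 KO and WT livers under vehicle (limma, against 0.0225% of all genes called), under tunicamycin (against 0.243% called) or for the difference in response (against 0.00902% called). At an unadjusted p under 0.05 stood 2 of the 38 genes under vehicle, against 1184 of all 22180 genes, 1 under tunicamycin, against 1986, and 0 for the difference in response, against 1019, so that the list's share lay near or below that of all genes in each comparison. A linear model without moderation of the variances gave no call either. For the genes with the largest tunicamycin responses, the intervals bound the effect of the knockout under tunicamycin. The NFIL3 KO minus WT difference under tunicamycin was -0.09 for Sqstm1 (interval -0.30 to 0.12), -0.12 for Atg13 (interval -0.30 to 0.05) and -0.09 for Ulk1 (interval -0.33 to 0.16). It was -0.17 for Ulk2 (interval -0.35 to 0.02) and -0.18 for Atg14 (interval -0.49 to 0.14). The responses of Sqstm1 differed between the genotypes by -0.16 (interval -0.46 to 0.14) and those of Atg13 by -0.16 (interval -0.41 to 0.08), so that smaller differences in response could not be told from 0 with 5 mice per group.

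The genes with an unadjusted p under 0.05 are named here after their values were seen. Under vehicle, Vmp1 had means of 5.62 ± 0.86 with NFIL3 deleted and 4.64 ± 0.35 in WT (SD, n = 5), a difference of 0.97 (SE 0.38, adjusted p = 0.805), with overlapping groups. Atg4a had means of 7.34 ± 0.17 with NFIL3 deleted and 7.61 ± 0.07 in WT (SD, n = 5), a difference of -0.26 (SE 0.11, adjusted p = 0.841). Under tunicamycin, Atg9a had means of 6.94 ± 0.07 with NFIL3 deleted and 7.23 ± 0.11 in WT (SD, n = 5), a difference of -0.29 (SE 0.10, adjusted p = 0.375). It was the only one of the 38 genes whose arrays did not overlap between genotypes under tunicamycin, against 1.49% of all genes. For Gabarap, the average hides 2 probesets that differed in opposite directions in this comparison. Tested among all probesets, the brighter one differed by -0.21 (SE 0.07, adjusted p = 0.492). The dimmer one differed by 0.45 (SE 0.36, adjusted p = 0.791).

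Small differences leaned one way under tunicamycin. The mean signal of NFIL3 KO livers lay below that of WT livers for 30 of the 38 genes, with a median difference of -0.09 against -0.0011 over all genes. Under vehicle it was lower for 20 of the 38, with a median of -0.01. Without NFIL3 KO tunicamycin replicate 3, 25 genes were lower under tunicamycin and the median was -0.05. Without WT tunicamycin replicates 1 and 2, 22 genes were lower and the median was -0.07. Over the 20 fits that left out 1 array, between 25 and 34 genes were lower and the median lay between -0.13 and -0.05. The genes are read from the same arrays and are not independent replicates, and no test was made of this count. Some other lists leaned in the same comparison: 19 of 21 lysosomal hydrolase genes were lower in NFIL3 KO livers (median -0.11), as were all 10 Kupffer cell markers (median -0.13), and all 8 neutrophil markers were higher (median 0.32), with none passing the test. Lower too were 17 of 21 lysosomal membrane and acidification genes (median -0.13) and 11 of 13 fusion genes (median -0.09). Others were more evenly split, with 4 of 8 hepatocyte markers, 4 of 8 sinusoidal endothelial markers and 10 of 18 further formation genes lower. The mean level of the Kupffer cell list ran from 7.38 to 7.76 in WT and from 7.00 to 7.73 in NFIL3 KO tunicamycin arrays, and that of the neutrophil list from 3.47 to 3.69 and from 3.44 to 4.30. These neutrophil levels lay below the median of all values (4.70), and the smallest neutrophil difference was 0.0006. Their part in the lean of the autophagy genes was not tested.

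**Figure D5:**
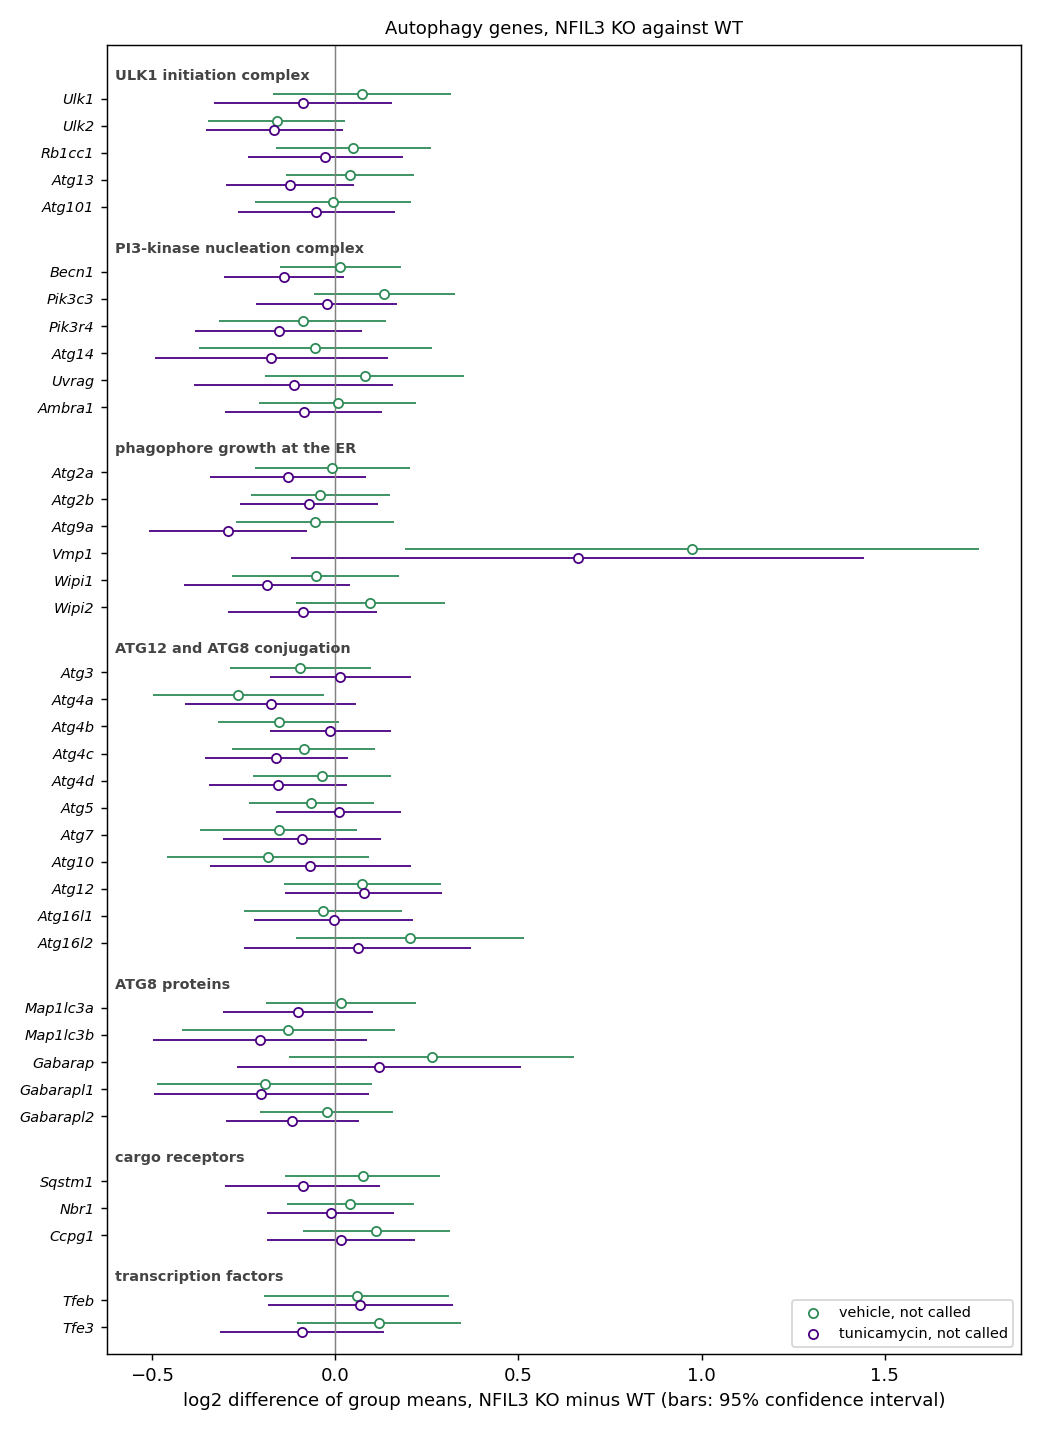
Log2 difference of group means, NFIL3 KO minus WT (x axis), for each of the 38 autophagy genes under vehicle (green) and under tunicamycin (purple), 5 arrays per group, with 95% confidence intervals of the limma fit. No gene passed the test in either comparison, most intervals cover 0, and Vmp1 has the widest intervals.

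Promoter windows of 300 bases were searched for short motifs on both strands, for 32 of the 38 genes with 40 windows, and set against 32851 windows of all genes in the same RefSeq table. The composite element of ATF4 and C/EBP, TGATGNAA, the D-box TTANNTAA, which NFIL3 and PAR-bZIP factors bind, and the ER stress element (ERSE) had no match in the 40 windows, against 3.97%, 6% and 0.119% of all windows. The MiT/TFE box TCACGTGA occurred in 1 window (2.5% against 0.974%), that of Atg3. Its core CACGTG, which it contains, occurred in 4 windows (10% against 7.15%), those of Atg3, Atg5, Atg7 and Atg14. TGACNNNGC occurred in 6 windows (15% against 12.4%), of Atg13, Map1lc3b, Ulk2 and Vmp1. TATAAA occurred in 2 windows (5% against 13.6%), of Sqstm1 and Atg4a, and the GC box in 24 windows (60% against 35.7%). The core of the MiT/TFE box, the antioxidant element, the TATA box and the GC box were added after the windows had been seen, and a match or its lack in these windows is a description of letters only.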

How the data were processed

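RNA from 20 livers was hybridised by the authors to MoGene-2_0-st whole-transcript arrays. The deposited values are log2 signals, which the authors made in Partek by the RMA method (robust multi-array average), that is background correction, quantiles made equal across arrays and a median polish of probes; the genome build was not given in the sources used here. They were used as deposited. They lay between 0.515 and 13.7, with array medians between 4.65 and 4.77, and precision is set by the number of arrays. Of 41345 probesets, 23521 carry 1 gene symbol in the platform annotation, 1820 several and 16004 none, and those with 1 symbol were averaged into 22180 genes.

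Group means were fitted to all 20 arrays with limma 3.58.1 (lmFit, contrasts.fit and eBayes) in R 4.3.3, which was tested on simulated data first. The 5 two-sided contrasts were tunicamycin against vehicle in each genotype, NFIL3 KO against WT under each treatment, and their interaction. P-values were adjusted by Benjamini-Hochberg over all genes of a contrast, and an adjusted p under 0.05 was called. Differences are log2 differences with standard errors, and intervals cover 95%. Same replicate numbers are different mice and were not used as pairs, and no batch is given in the labels.

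Members, lists and motifs were chosen with earlier results of these data known. Array values are given for the 12 genes called in both genotypes with the largest mean absolute difference and for Map1lc3b, Sqstm1, Becn1, Ulk1, Tfeb and Ccpg1, 16 in all. They are also given for the Gabarap probesets, outside that rule. Any of the 38 genes may be named. From other lists, differences are given for up to 4 called genes with the largest WT difference, and some further called genes are named without values. Promoter sequences come from the RefSeq table (GRCm38.p6). Alternatives were another normalization, centring, probeset choice, a filter on dim genes, other variance models, array weights, a replicate block and leaving out arrays.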

Additional observations from a re-analysis of the deposited data

Results flagged for a closer look

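In 5 of the 152 groups of 5 arrays that the 38 genes give, 1 array lay far from the other 4 (its gap to the nearest array, over the range of the group, exceeded Dixon's critical value of 0.71), and chance gives about 1 in 20 such groups. Ccpg1, an ER-phagy receptor gene, was 7.63 in WT tunicamycin replicate 5 and 7.95 to 8.07 in the other 4 arrays, and the fall of Ccpg1 in WT livers did not pass the test without that array. Tfe3 was 7.00 in NFIL3 KO vehicle replicate 4 and 7.13 to 7.18 in the others. Atg2a was 7.20 in the same array and 7.40 to 7.45 in the others. Atg4c was 7.21 in WT vehicle replicate 2 and 7.00 to 7.06 in the others. Atg5 was 8.53 in WT tunicamycin replicate 5 and 8.71 to 8.77 in the others. These 5 values come from 3 arrays, none of which is NFIL3 KO tunicamycin replicate 3, the array furthest from its group over all genes.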

How the results depend on the processing

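No difference of the 38 genes that passed the test changed sign under any alternative, and the counts of genes that rose or fell stayed within 1.5 times their reported values. Without 1 array at a time, 10 to 11 genes rose and 5 to 8 fell in WT livers, 8 to 10 rose and 6 to 9 fell in NFIL3 KO livers, and none was called between genotypes or for the interaction. Over 31 alternatives, the WT call of Ccpg1 was lost in 19, that of Atg16l1 in 7 and that of Atg12 in 1, and of the NFIL3 KO calls that of Atg9a was lost in 2 and that of Gabarapl2 in 5. Gabarap passed the test in both genotypes when its brighter probeset was used (0.44, adjusted p = 6.01e-05 in WT and 0.30, adjusted p = 0.00322 in NFIL3 KO livers). Atg4a in WT livers passed only after cyclic loess (-0.30, adjusted p = 0.0324). Under tunicamycin, 25 of the 38 genes lay lower in the knockout after cyclic loess and 33 after centring each array on its median. The same replicate numbers did not pair the mice: deviations from the group means correlated between -0.14 and 0.10 in the 30 same-numbered pairs. These correlations were also averaged for each array by the replicate number of the arrays in the other groups. For 2 of 20 arrays the mean was highest for their own number. With the replicate block, Tfeb fell in WT (-0.31, adjusted p = 0.036) and in NFIL3 KO livers (-0.30, adjusted p = 0.0424), which made 8 falls in WT and 9 in NFIL3 KO livers, and no other call changed. The fit to only the groups compared was not run for the interaction. Depth has no counterpart on arrays, where 5 mice per group limit which small differences pass the test, and mRNA levels in whole liver do not measure autophagic flux.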
